A study of Arabidopsis thaliana with 75 samples.

Results

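Auxin response and auxin transport in the root epidermis were followed through a list of 47 loci: 25 Aux/IAA genes, the GH3 genes, the influx carriers AUX1 and LAX3, 5 genes of PIN efflux carriers, the transporter gene ABCB4, the response factors ARF5, ARF7, ARF8 and ARF19, the receptor gene TIR1, and LBD16 and LBD29. The members were taken by locus identifier and not by their values. Of the 47 loci, 45 had a row among the 21440 genes measured, and GH3.2 and GH3.4 had none, which left 5 GH3 genes.

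RNA was measured on Affymetrix ATH1 arrays, 3 biological replicates in each of 25 groups of Arabidopsis thaliana seedlings aged 5 days. Every line, wild type included, carried WER::GFP, one transgene crossed into each line, active in developing epidermis, more in non-hair cells, and in the lateral root cap. Cells were sorted for this GFP from pooled root tips, so an array can hold hair, non-hair and cap cells, as far as the line has them. The hormone groups were rhd6-1 seedlings grown for 3 days on unsupplemented medium (MS). They were then transferred to MS with the auxin indole-3-acetic acid (rhd6 + IAA), to MS with the ethylene precursor ACC (rhd6 + ACC), or to fresh MS (rhd6 + MS). Cells were sorted at an age of 5 days, so the signals are levels after days on the new medium, and early responses were not measured. No dose is given here, since the labels state none and the study's text and legend differ on the unit for IAA. The rhd6 mutant lacks a bHLH factor needed for hair initiation, and it was also sorted without transfer. The other Michigan lines were cpc try (cpc-1 try-82), which lacks R3 MYB proteins that inhibit the non-hair fate and is hairless, the hairy lines gl3 egl3 (gl3-1 egl3-1), ttg (ttg1-13) and wer myb23 (wer-1 myb23-1), and gl2 (gl2-1), myc1 (myc1-1), bhlh66 (bhlh66-1), cobl9 (cobl9-1), cow1 (cow1-3), csld3 (csld3-1), ire (ire1-2), lrx1 (lrx1-4), mrh1 (mrh1-1), mrh2 (mrh2-1), mrh3 (mrh3-3) and rhd2 (rhd2-1), set against wild-type Columbia. The 3 hairy lines and cpc try were also measured at Duke, 12 arrays in 4 groups, against 63 arrays in 21 groups at Michigan.

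Auxin is perceived when it joins TIR1, the F-box subunit of a ubiquitin ligase, to an Aux/IAA repressor, which is then degraded. The ARF transcription factors that the repressor held are released and act on their targets, among them many Aux/IAA and GH3 genes themselves. GH3 enzymes conjugate IAA to amino acids and so lower the free hormone, while AUX1/LAX, PIN and ABCB proteins carry it into and out of cells. In the root epidermis auxin and ethylene both promote hair initiation and elongation.

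Values are log2 signals as deposited, so a difference of 1 is a 2-fold change, and they rank arrays for one gene but not genes among themselves. A gene was called where the adjusted p of limma was below 0.05, with the adjustment over all 21440 genes. RHD6 itself was at 5.93, 6.34 and 6.98 in rhd6 + IAA, 6.05, 6.32 and 6.58 in rhd6 + ACC, 5.34, 5.72 and 4.12 in rhd6 + MS and 6.19, 5.45 and 6.13 in rhd6, against 9.68, 9.69 and 9.41 in wild type, so the 12 arrays of the mutant were all below the wild type. Replicate 2 of gl3 egl3 at Michigan went against its label for 2 marker genes of non-hair cells: GL2 was at 8.52 and TTG2 at 7.16 on that array, against 2.92 and 4.79 for GL2 and 4.01 and 4.29 for TTG2 on the other two. Replicate 1 of cpc try at Michigan and replicate 2 of wer myb23 at Duke stood apart for several auxin genes. In such sorted samples fewer cells of a type and less RNA per cell cannot be told apart.

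The first question was which auxin genes respond when auxin is given to rhd6 seedlings. In rhd6 + IAA against rhd6 + MS 4 of the 45 genes rose and none fell: the conjugating enzyme gene GH3.6 and the repressor genes IAA3, IAA6 and IAA12. This is 8.89% of the members, where 2.78% of all genes were called and 1.74% were called higher. All 25 Aux/IAA genes and all 5 GH3 genes had a difference above 0, with medians of 0.78 and 1.60, although most of them did not pass the test. Over the 45 members 41 differences were above 0 (91.1%, against 50.8% of all genes) and the median was 0.49, against 0.01 over all genes. By unadjusted p 17 members (37.8%) were below 0.05, where 26.5% of all genes were, and 18 had groups that did not overlap, where 31.9% of all genes had.

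GH3.6 (AT5G54510), also known as DFL1, was at 10.56, 10.17 and 10.81 in rhd6 + IAA, against 8.61, 8.98 and 7.84 in rhd6 + MS. Every IAA array was above every MS array, and the difference was 2.04 ± 0.47 (SE, n = 3 each; 95% interval 1.09 to 2.99; adjusted p = 0.020), a 4.11-fold higher signal. GH3.5 (AT4G27260) was at 10.93, 10.53 and 11.36 in rhd6 + IAA, against 9.15, 9.81 and 9.07 in rhd6 + MS. The groups did not overlap for GH3.5 either, but its difference of 1.60 ± 0.56 had an adjusted p of 0.074.

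GH3.3 (AT2G23170) was at 10.60, 11.59 and 11.80 in rhd6 + IAA, against 9.56, 10.87 and 8.48 in rhd6 + MS. Here replicate 2 of rhd6 + MS lay among the IAA arrays, and the difference of 1.70 ± 0.85 was not called (adjusted p = 0.19). GH3.1 (AT2G14960) was at 9.22, 8.40 and 9.0 in rhd6 + IAA, against 7.48, 7.49 and 8.41 in rhd6 + MS, and the highest MS array was just above the lowest IAA array (1.08 ± 0.48, adjusted p = 0.14). GH3.17 (AT1G28130), whose enzyme acts on IAA with glutamate, was at 10.69, 10.61 and 11.10 in rhd6 + IAA, against 10.21, 10.33 and 10.39 in rhd6 + MS, without overlap and with a difference of 0.49 ± 0.26 (adjusted p = 0.22). The GH3 genes therefore all lay higher after IAA on average, and 1 of the 5 passed the test.

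IAA3 (AT1G04240), the SHY2 repressor that restrains growth in the root meristem, was at 6.28, 5.84 and 6.21 in rhd6 + IAA, against 4.85, 5.04 and 4.01 in rhd6 + MS. It rose by 1.47 ± 0.38 (adjusted p = 0.034) with no overlap. IAA6 (AT1G52830) was at 6.83, 6.13 and 7.28 in rhd6 + IAA, against 4.78, 5.13 and 5.09 in rhd6 + MS, and rose by 1.75 ± 0.50 (adjusted p = 0.047). IAA12 (AT1G04550), or BODENLOS, the repressor best known for holding ARF5 in the embryo, was at 5.25, 4.87 and 3.99 in rhd6 + IAA, against 3.92, 3.87 and 2.93 in rhd6 + MS. Its lowest IAA array was only just above its highest MS array, and it rose by 1.13 ± 0.32 (adjusted p = 0.047). The lowest MS array of IAA12 was near the 5th percentile of signals of the Michigan arrays (2.80 to 3.01).

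Of the other 22 Aux/IAA genes IAA28 (AT5G25890) came nearest to the threshold, with 8.59, 8.56 and 9.91 in rhd6 + IAA, against 8.19, 8.41 and 7.52 in rhd6 + MS (0.98 ± 0.31, adjusted p = 0.058). IAA10 (AT1G04100) differed by 1.45 ± 0.54 (adjusted p = 0.088) and IAA17 (AT1G04250), known as AXR3, by 0.58 ± 0.22 (adjusted p = 0.092), both without overlap. In all, 13 of the 25 Aux/IAA genes had every IAA array above every MS array, where 15.3% of all genes did. IAA19, an auxin-induced repressor of growth responses, was at 10.59, 10.40 and 10.31 in rhd6 + IAA, against 9.49, 9.89 and 8.94 in rhd6 + MS (0.99, adjusted p = 0.14).

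**Figure D1:**
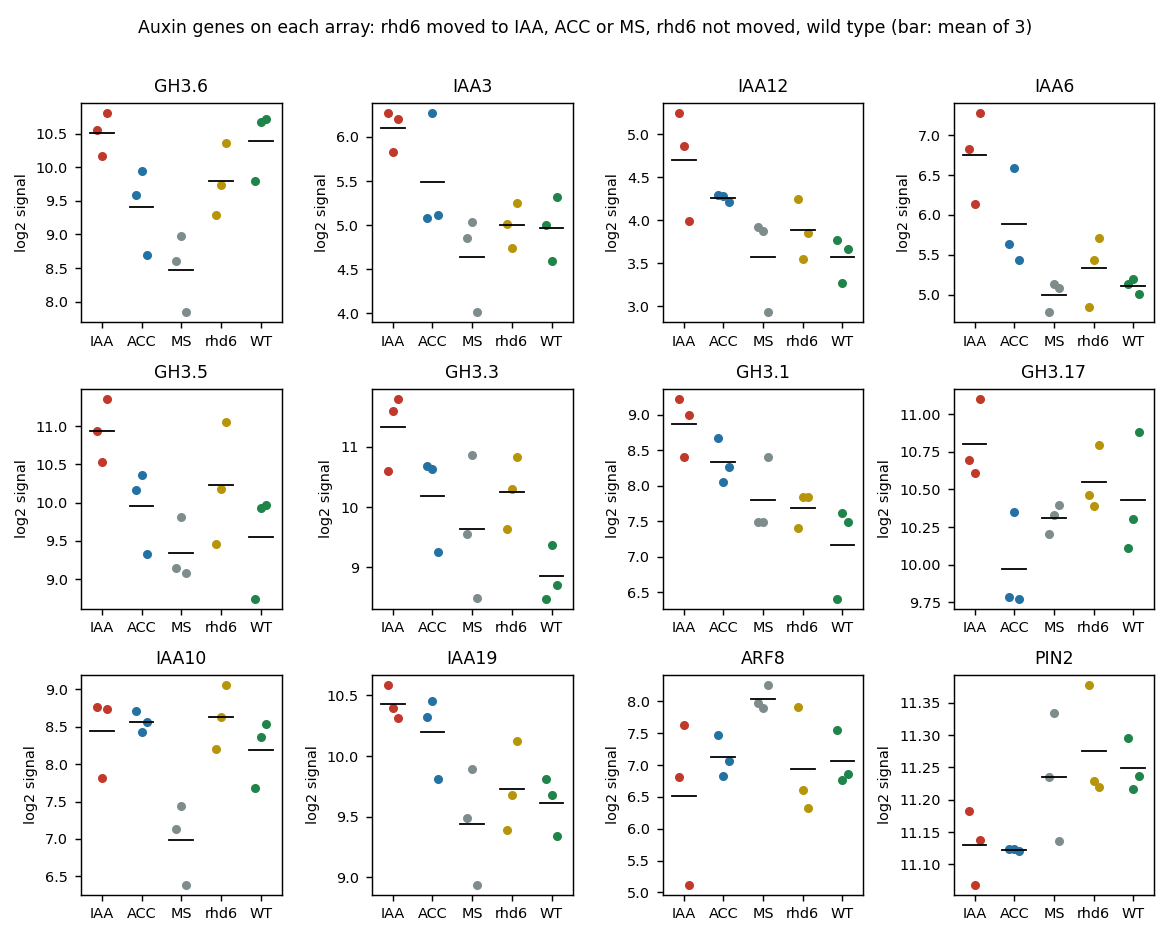
Log2 signal (vertical axes) of 12 auxin genes on each array of rhd6 + IAA, rhd6 + ACC, rhd6 + MS, rhd6 without transfer and wild type, points for the 3 arrays of a group and a bar for their mean. GH3.6 is at 10.17 to 10.81 after IAA and at 7.84 to 8.98 on MS, PIN2 stays between 11.07 and 11.38 in all 15 arrays, and each vertical axis has its own range.

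The transport genes showed no called change. PIN2 (AT5G57090), which carries auxin shootward through the epidermis, was at 11.18, 11.07 and 11.14 in rhd6 + IAA, 11.12, 11.12 and 11.12 in rhd6 + ACC and 11.23, 11.33 and 11.14 in rhd6 + MS, a difference of −0.11 (95% interval −0.42 to 0.21) for IAA and of −0.11 (−0.43 to 0.21) for ACC.

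PIN3 (AT1G70940) was at 4.63, 3.91 and 3.71 in rhd6 + IAA, 3.57, 3.32 and 3.77 in rhd6 + ACC and 3.70, 3.96 and 4.31 in rhd6 + MS, with differences of 0.09 (−0.52 to 0.70) for IAA and −0.44 (−1.05 to 0.17) for ACC. PIN4 (AT2G01420) was at 7.71, 7.92 and 7.59 in rhd6 + IAA, 7.26, 8.22 and 7.02 in rhd6 + ACC and 7.42, 7.27 and 7.71 in rhd6 + MS, with differences of 0.28 (−0.64 to 1.20) and 0.03 (−0.88 to 0.95). PIN7 (AT1G23080) was at 4.24, 4.53 and 4.56 in rhd6 + IAA, 4.10, 4.51 and 4.19 in rhd6 + ACC and 3.94, 3.86 and 4.45 in rhd6 + MS, with differences of 0.36 (−0.67 to 1.38) and 0.18 (−0.85 to 1.20). The groups overlapped for PIN3, PIN4 and PIN7 with either hormone. The intervals of PIN4 and PIN7 after IAA, and of PIN3 and PIN7 after ACC, reach a 2-fold change in one direction.

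AUX1 (AT2G38120), the main influx carrier of the epidermis and root cap, was at 9.84, 9.24 and 9.92 in rhd6 + IAA, 9.32, 9.51 and 9.37 in rhd6 + ACC and 9.14, 9.18 and 9.47 in rhd6 + MS, with overlapping groups and differences of 0.40 (−0.07 to 0.87) for IAA and 0.14 (−0.33 to 0.60) for ACC. TIR1 (AT3G62980) was at 9.47, 9.55 and 9.32 in rhd6 + IAA, 9.36, 9.37 and 9.58 in rhd6 + ACC and 9.41, 9.49 and 9.92 in rhd6 + MS, with differences of −0.16 (−0.60 to 0.28) and −0.17 (−0.61 to 0.27). ABCB4 (AT2G47000) differed by 0.47 (adjusted p = 0.12) after IAA, with every IAA array above every MS array. Neither the receptor gene nor any carrier gene passed the test with either hormone.

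Among the response factors ARF8 (AT5G37020) was the member farthest below 0, at 6.81, 7.64 and 5.12 in rhd6 + IAA, against 7.97, 7.90 and 8.26 in rhd6 + MS. All IAA arrays lay below the MS arrays, with replicate 3 far below the other two. The difference of −1.52 ± 0.56 was not called (adjusted p = 0.082). The ARF8 mean of rhd6 + MS (8.04) was the highest of all Michigan groups. Against rhd6 without transfer ARF8 differed by −0.43 ± 0.56 after IAA, with overlap. ARF19 (AT1G19220), which with ARF7 drives lateral root formation, differed by 0.70 ± 0.30 (adjusted p = 0.13), and ARF7 and ARF5 by 0.38 and 0.33. LBD16 (AT2G42430), a target of ARF7 and ARF19 in lateral root founder cells, was at 6.55, 6.78 and 8.33 in rhd6 + IAA, against 6.22, 7.11 and 5.38 in rhd6 + MS, with overlap (0.98 ± 0.58). LBD29 was at 2.91 to 3.24 in rhd6 + IAA and at 2.84 to 2.97 in rhd6 + MS, near the 5th percentile of signals of the Michigan arrays (2.80 to 3.01).

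The count for IAA depended on single arrays. Without replicate 1 of rhd6 + IAA, replicate 1 of rhd6 + MS or replicate 3 of rhd6 + MS no member was called, without replicate 3 of rhd6 + IAA 1 was and without replicate 2 of rhd6 + MS 2 were, whereas without replicate 2 of rhd6 + IAA 12 were, the same 4 and IAA2, IAA10, IAA11, IAA17, IAA28, GH3.5 and ARF19 higher and ARF8 lower, with 20% of all genes called. In these 6 fits the difference of GH3.6 was between 1.72 and 2.29, and it was called in 2 of them. In the other 5 fits 0.056% to 1.3% of all genes were called. A fit of only the 6 arrays compared called no member and no gene for IAA, with adjusted p of 0.13 to 0.18 for the 4 genes, whose differences are the same in both fits.

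Markers of other cells moved beside these genes. The 3 lateral root cap markers SMB, BRN1 and BRN2, summed on the linear scale, came to a log2 of 11.58 to 12.19 in rhd6 + IAA, against 10.53 to 11.39 in rhd6 + MS, with all 3 higher on every IAA array and none called (BRN2 1.05, adjusted p = 0.063). The epidermal marker WER differed by −0.70 (adjusted p = 0.087). The hair cell markers EXPA7, COBL9 and PRP3 and the signal of RHD6 all rose, by 1.36 to 2.94. RHD6 is the gene mutated in all these arrays, so its signal is not read as a hair cell marker here. The part of these cell types in the values of the auxin genes was not tested. Summed ground tissue markers were at 7.49 to 8.47 in rhd6 + IAA and 7.29 to 7.89 in rhd6 + MS, and stele markers at 9.83 to 10.20 in rhd6 + IAA and 9.55 to 9.93 in rhd6 + MS.

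ACC, which cells convert to ethylene, was given to the same mutant, and the rhd6 + ACC arrays were set against the same 3 MS arrays. No auxin gene was called (0 of 45, where 0.779% of all genes were). By unadjusted p, 4 members (IAA3, IAA10, IAA12 and IAA30) were below 0.05, where 8.25% of all genes were. Most differences were above 0 but smaller than with IAA: 37 of 45 (82.2%, against 44.9% of all genes), with a median of 0.31 over the members, 0.50 over the Aux/IAA genes and 0.55 over the GH3 genes, against −0.04 over all genes. In a fit of only the 6 arrays compared 3 members were called, where 5.15% of all genes were. IAA10 and IAA30 were higher (1.58 and 1.18) and ARF8 was lower (−0.92). In rhd6 without transfer IAA10 was at 8.21 to 9.06 and ARF8 at 6.33 to 7.91. The ACC arrays of both, at 8.43 to 8.71 and 6.83 to 7.47, lay within these ranges. IAA30 was at 8.04 to 8.81 in rhd6 + ACC and at 6.64 to 8.10 in rhd6. The ACC and MS groups did not overlap for 11 members, 8 higher and 3 lower, where 32.6% of all genes had no overlap.

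IAA10 was the member with the lowest p. It was at 8.71, 8.43 and 8.56 in rhd6 + ACC, against 7.14, 7.45 and 6.39 in rhd6 + MS. The ACC arrays were tight and all above the MS arrays, and the difference was 1.58 ± 0.54 (adjusted p = 0.29). They did not lie above rhd6 without transfer, which was at 8.21 to 9.06. IAA12 was at 4.30, 4.29 and 4.21 in rhd6 + ACC, above all MS arrays as well (0.69 ± 0.32, adjusted p = 0.58). IAA3 was at 5.08, 6.27 and 5.12 in rhd6 + ACC (0.86 ± 0.38, adjusted p = 0.53) and IAA6 at 5.64, 6.58 and 5.43 (0.89 ± 0.50, adjusted p = 0.65), each with replicate 2 above the other two.

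GH3.6 was at 9.59, 9.94 and 8.70 in rhd6 + ACC, and replicate 3 lay within the MS range (0.93 ± 0.47, 95% interval −0.02 to 1.88). GH3.5 at 10.17, 10.37 and 9.33, GH3.3 at 10.69, 10.63 and 9.24 and GH3.1 at 8.67, 8.06 and 8.26 overlapped with rhd6 + MS too, with differences of 0.61, 0.55 and 0.54. GH3.17 alone of the GH3 genes had a difference below 0, at 9.79, 10.35 and 9.78 in rhd6 + ACC, against 10.21, 10.33 and 10.39 in rhd6 + MS (−0.34, 95% interval −0.86 to 0.19). Hair cell markers moved with ACC as with IAA: EXPA7 rose by 3.05, COBL9 by 2.23 and PRP3 by 3.32. The mutated gene RHD6 differed by 1.25 (adjusted p = 0.058), and the summed cap markers were at 11.14 to 11.95 in rhd6 + ACC.

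**Figure D2:**
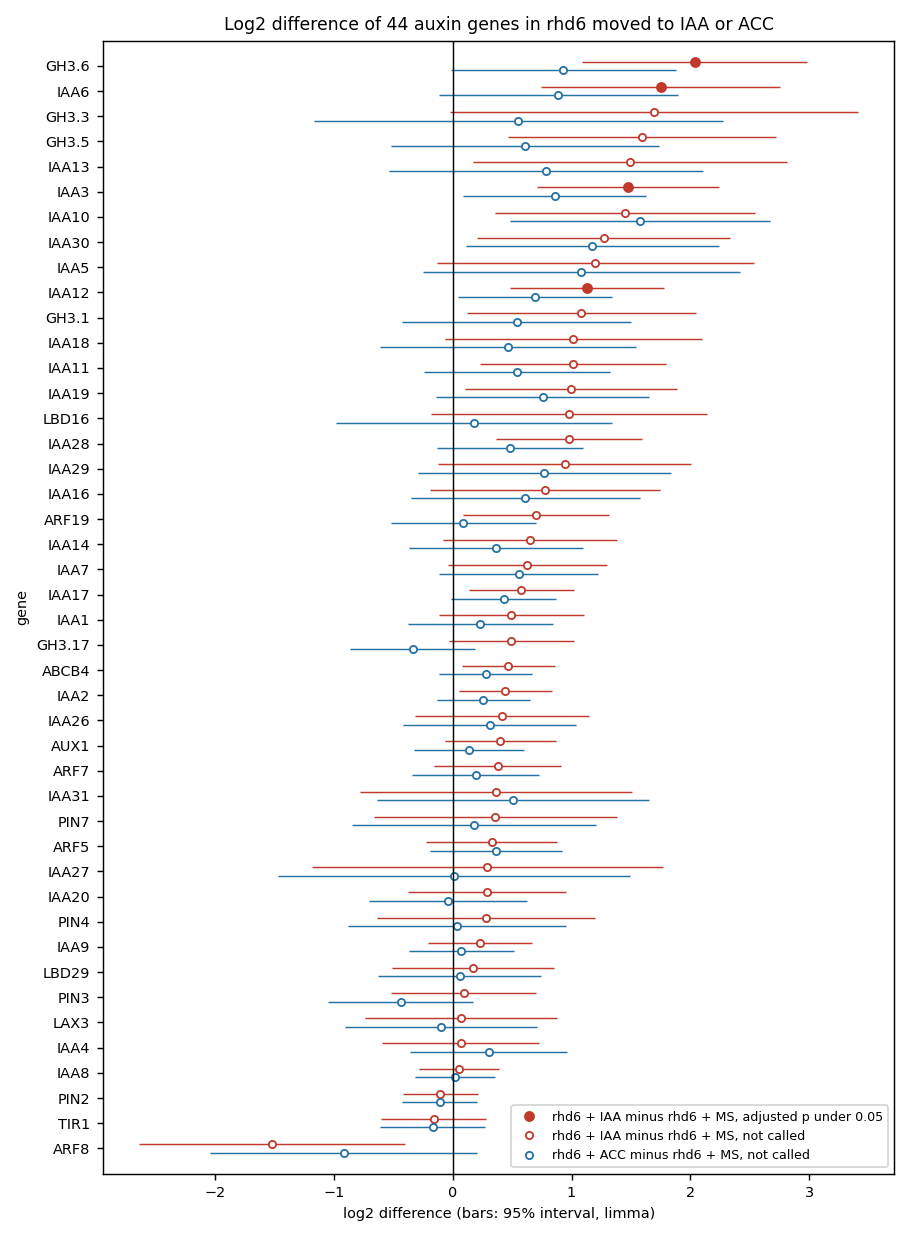
Log2 difference from rhd6 + MS (horizontal axis, bars for the 95% interval of limma) of 44 auxin genes (vertical axis, in order of the IAA difference) for rhd6 + IAA and rhd6 + ACC, filled points for an adjusted p under 0.05. The 4 filled points, all for IAA, are GH3.6, IAA6, IAA3 and IAA12, and ARF8 is the lowest at −1.52.

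The difference between the hormones was tested directly, rhd6 + IAA against rhd6 + ACC. No member was called, where 0.014% of all genes were, so the 4 genes called with IAA and not with ACC are not shown to differ between the treatments. GH3.17 came first by p, with all IAA arrays above all ACC arrays and a difference of 0.83 ± 0.26 (95% interval 0.30 to 1.36; adjusted p = 0.99). GH3.6 was also without overlap, at 1.11 ± 0.47 (0.16 to 2.05), as was ARF19 at 0.61 ± 0.30 (0.00 to 1.22). The intervals reached 0 for IAA3 (0.62, −0.15 to 1.39) and IAA6 (0.86, −0.14 to 1.87), and IAA10 was near 0 with a wide interval (−0.13, −1.22 to 0.97). All 5 GH3 genes were higher with IAA on average (median 0.99), and 40 of 45 members were (88.9%, against 50.9% of all genes). Of the members 3 were below an unadjusted 0.05 and 6 had no overlap, where 3.55% and 8.95% of all genes did.

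The MS control had itself been transferred, and rhd6 + MS was compared with rhd6 that had not been moved. None of the 45 genes was called (1.83% of all genes were), and 33 of 45 differences were below 0, while 51.1% of all genes were above it. The median over the members was −0.27, against 0.01 over all genes, and 8 members had no overlap, all lower, where 31.6% of all genes had none. IAA10 was at 7.14, 7.45 and 6.39 in rhd6 + MS, against 8.21, 8.63 and 9.06 in rhd6 (−1.64 ± 0.54, adjusted p = 0.082). GH3.6 was at 8.61, 8.98 and 7.84 in rhd6 + MS, against 9.29, 9.74 and 10.37 in rhd6 (−1.32 ± 0.47, adjusted p = 0.10). IAA28 (−0.92), IAA26 (−1.06) and IAA17 (−0.62) lay lower on every MS array too, with adjusted p from 0.081 to 0.0997. Without replicate 1 of rhd6, 3 members were called, among them IAA26 and IAA28 lower (−1.28 and −1.07), with 7.42% of all genes called.

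As a result the choice of control mattered: against rhd6 without transfer, no member was called for IAA, where 0.00466% of all genes were. GH3.6 then differed by 0.72 ± 0.47, GH3.5 by 0.71 and GH3.3 by 1.08, while IAA3 (1.11 ± 0.38) and IAA6 (1.42 ± 0.50) kept most of their difference, with adjusted p of 0.74 for both. By the first letter of their array names, the transferred arrays fall in one array series and the rhd6 arrays in 2 others, so transfer and array series cannot be told apart. Lateral root cap markers moved as well: BRN2 fell by 1.24 in rhd6 + MS against rhd6 (adjusted p = 0.047), and the summed cap markers were at 10.53 to 11.39 in rhd6 + MS and 11.95 to 12.55 in rhd6. The part of the cap cells was not tested.

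The rhd6 mutation without transfer called no auxin gene against wild type (2.09% of all genes were called), and 2 were below an unadjusted 0.05, where 8.6% of all genes were. LBD16 was at 5.81, 6.81 and 7.40 in rhd6, against 5.02, 5.26 and 5.37 in wild type (1.46 ± 0.58, adjusted p = 0.32), and its difference was 1.05 within array series S and 2.03 within series x, each with 1 wild-type array. IAA13 differed by 1.53 ± 0.66 (adjusted p = 0.41) with overlap, 0.19 within series S and 2.67 within series x. IAA31 (AT3G17600), an Aux/IAA protein that lacks the usual degron, was at 3.33, 4.81 and 4.45 in rhd6, against 5.31, 5.25 and 5.41 in wild type (−1.13 ± 0.57, adjusted p = 0.60). GH3.6 was at 9.29, 9.74 and 10.37 in rhd6 and at 9.79, 10.67 and 10.72 in wild type.

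Across the 21 Michigan groups the auxin genes were often highest after IAA. The mean of rhd6 + IAA was the highest of the 21 for 15 of 45 members (33.3%, against 8.54% of all genes), and these were IAA1, IAA3, IAA6, IAA7, IAA13, IAA18 and IAA19, all 5 GH3 genes, AUX1, ARF19 and LBD16. The hairless cpc try followed, highest for 7 members (15.6%, against 7.33% of all genes), among them IAA4, IAA8, IAA12, LAX3, PIN3 and PIN4. The lowest means were most often those of cobl9 (8 members, 17.8%, against 2.76% of all genes) and ttg (7 members, 15.6%, against 4.62% of all genes). These orders are a description, since many neighbours differ by less than the spread of their replicates.

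GH3.6 shows this. Its mean was highest in rhd6 + IAA (10.52 ± 0.32, SD) and next in wild type (10.40 ± 0.52), which did not differ beyond their spread, and it was lowest in rhd6 + MS (8.48 ± 0.58) and next to lowest in lrx1 (8.76). GH3.3 had the widest range of group means, highest in rhd6 + IAA (11.33) and rhd6 (10.26) and lowest in ttg (7.09) and cobl9 (6.84). PIN2 had group means within 10.96 and 11.47, TIR1 within 8.90 and 9.61, ABCB4 within 10.71 and 11.36 and LBD29 within 2.65 and 3.5.

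**Figure D3:**
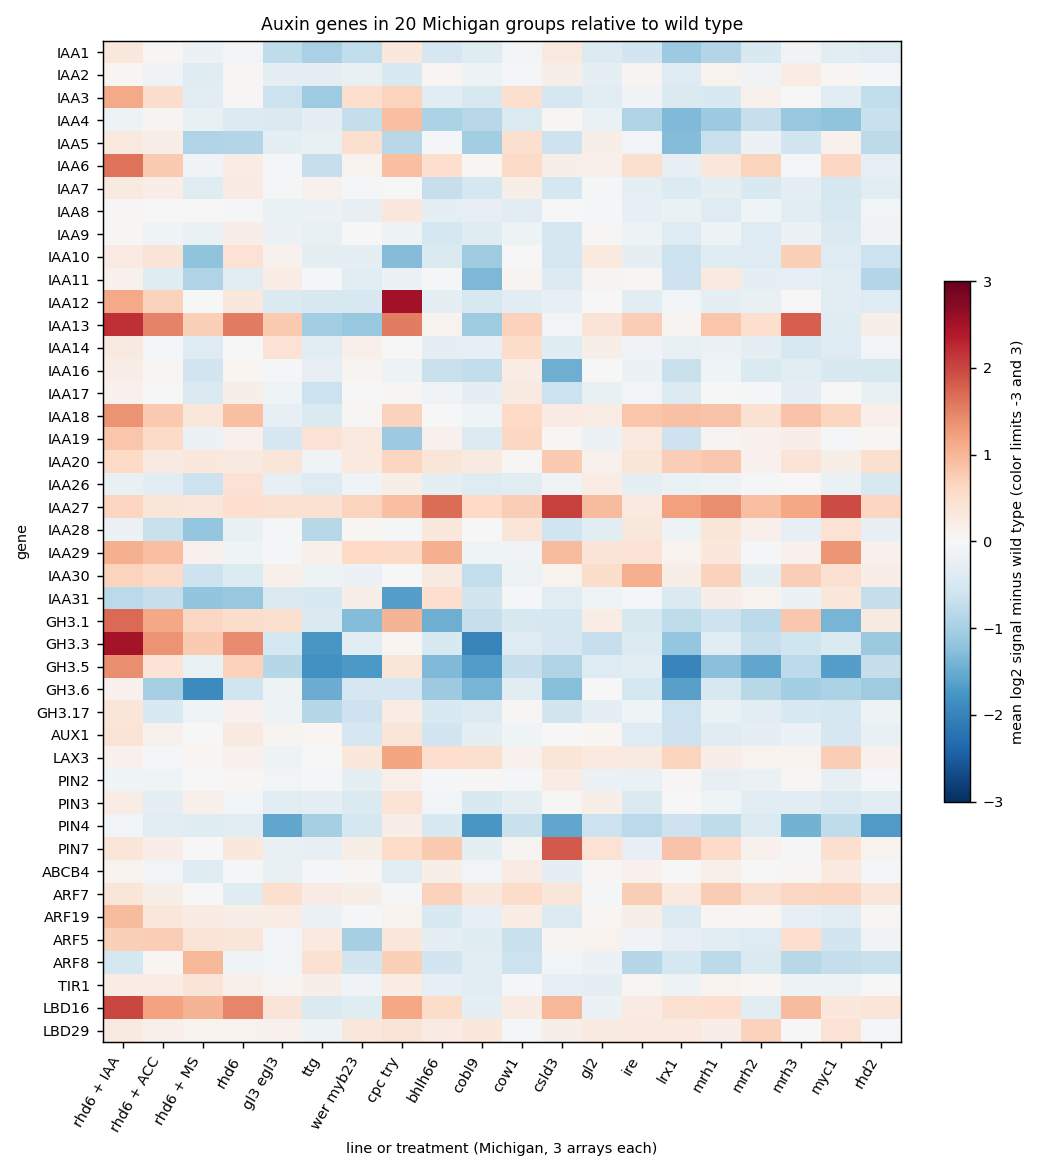
Mean log2 signal minus that of wild type (color, limits −3 and 3) of 44 auxin genes (rows) in 20 Michigan groups (columns, 3 arrays each). IAA12 is at 2.51 in cpc try, and the GH3.6 row is below 0 in every column except rhd6 + IAA.

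The next question was whether auxin genes differ between root epidermis that is nearly all hair cells and epidermis with none. At Michigan 13 of the 45 genes fell and 2 rose in the hairy lines against cpc try (33.3%, where 11.9% of all genes were called, 5.26% lower and 6.62% higher). Among those lower in the hairy lines were IAA1, IAA3, IAA4, IAA8, IAA12, IAA13, GH3.1, GH3.5, GH3.17, the influx carrier gene LAX3 and the efflux carrier genes PIN3 and PIN4. Higher were IAA19 and IAA31. The median over the members was −0.44, against −0.03 over all genes, and 22 members were below an unadjusted 0.05, where 21.9% of all genes were.

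IAA12 differed most. It was at 3.42, 2.48 and 3.52 in gl3 egl3, 3.08, 3.13 and 3.03 in ttg and 2.44, 3.16 and 3.62 in wer myb23, against 6.15, 6.06 and 6.03 in cpc try. The 9 hairy arrays lay near the floor and the 3 cpc try arrays close together far above them, with a difference of −2.98 ± 0.26 (adjusted p = 2.6e-12). IAA4 (AT5G43700) was at 6.05, 6.16 and 6.60 in gl3 egl3, 6.31, 6.76 and 6.16 in ttg and 5.62, 6.28 and 6.10 in wer myb23, against 7.26, 7.75 and 7.80 in cpc try (−1.38 ± 0.27, adjusted p = 0.00018). IAA4 too had no overlap, and no single array decided its call.

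IAA1 (AT4G14560) was at 9.07, 9.63 and 10.12 in gl3 egl3, 9.10, 9.82 and 9.27 in ttg and 9.40, 9.81 and 9.64 in wer myb23, against 11.37, 10.25 and 10.39 in cpc try (−1.13 ± 0.25, adjusted p = 0.00091). Its highest hairy array was just below the lowest of cpc try. IAA8 (AT2G22670) was at 10.00, 10.23 and 10.11 in gl3 egl3, 9.95, 10.36 and 10.11 in ttg and 9.88, 10.15 and 10.18 in wer myb23, against 10.48, 10.75 and 10.67 in cpc try, a small difference of −0.53 ± 0.14 (adjusted p = 0.0056) without overlap.

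PIN3, which turns auxin flow with gravity in the root cap, was at 3.52, 3.45 and 3.61 in gl3 egl3, 3.37, 3.64 and 3.72 in ttg and 3.37, 3.06 and 3.82 in wer myb23, against 4.67, 3.90 and 4.23 in cpc try (−0.76 ± 0.25, adjusted p = 0.036). IAA31 was at 4.52, 5.35 and 4.79 in gl3 egl3, 4.43, 4.92 and 5.28 in ttg and 6.38, 5.08 and 5.05 in wer myb23, against 4.06, 3.67 and 3.28 in cpc try (1.41 ± 0.46, adjusted p = 0.036). PIN3 on all these arrays (3.06 to 4.67) and IAA31 in cpc try (3.28 to 4.06) had low signals. The 5th percentile of signals of the Michigan arrays was 2.80 to 3.01. The 6 genes from IAA12 to IAA31 were the called members without overlap. Over all genes, called or not, 8.86% had no overlap.

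GH3.5 was at 7.80, 8.76 and 9.49 in gl3 egl3, 7.0, 7.25 and 8.97 in ttg and 7.92, 7.51 and 8.08 in wer myb23, against 11.28, 9.5 and 8.97 in cpc try (−1.83 ± 0.46, adjusted p = 0.0041). For GH3.5 it was replicate 1 of cpc try that lay high.

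**Figure D4:**
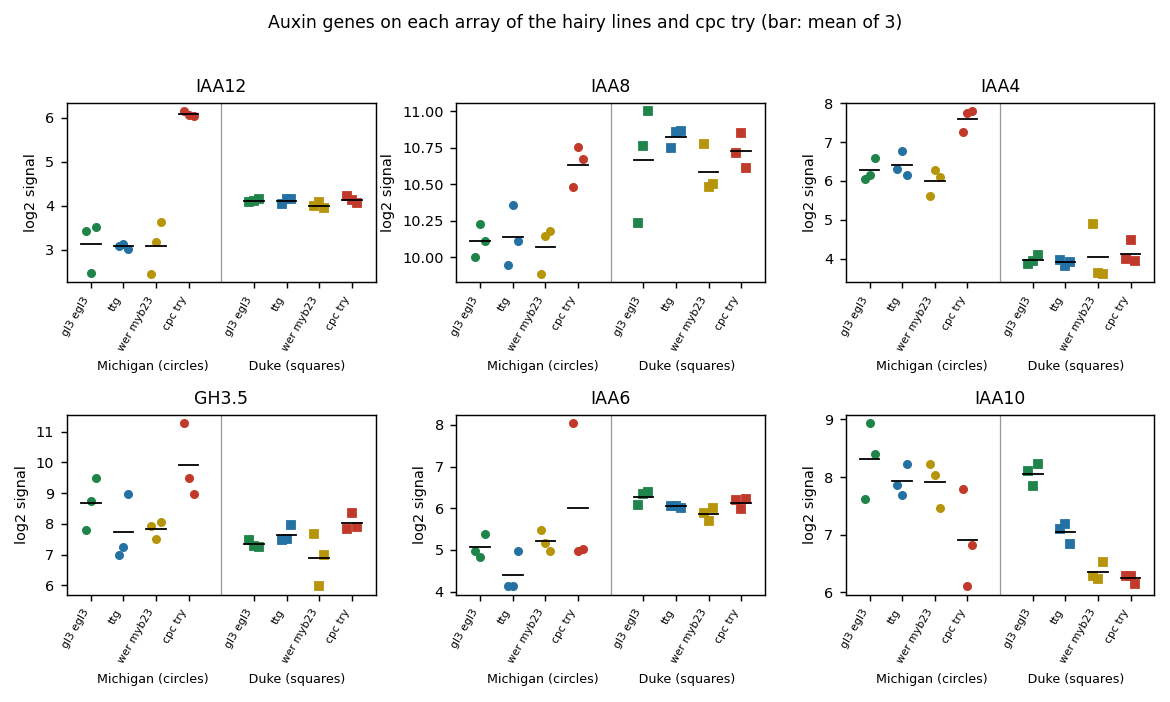
Log2 signal (vertical axes, each with its own range) of IAA12, IAA8, IAA4, GH3.5, IAA6 and IAA10 on each array of gl3 egl3, ttg, wer myb23 and cpc try, circles for Michigan, squares for Duke and bars for the mean of 3 arrays. The cpc try arrays of IAA12 are at 6.03 to 6.15 at Michigan and at 4.07 to 4.21 at Duke, and replicate 1 of cpc try at Michigan is at 8.04 for IAA6.

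Replicate 1 of cpc try at Michigan held several auxin-induced genes high. IAA6 was at 8.04 on that array, against 4.96 and 5.02 on the other two, and IAA5 at 8.94, against 5.42 and 5.63. Likewise GH3.3 was at 11.25, against 7.55 and 7.92, and LBD16 at 8.13, against 5.11 and 5.86. Without it 9 members were called, 5 lower and 4 higher, with 10.6% of all genes called. Of the 15, 6 were still called, among them IAA12 and IAA4, while the calls of IAA1, IAA3, IAA13, GH3.1, GH3.5, GH3.17, LAX3, PIN3 and PIN4 were lost. These 9 genes stayed below 0, at −0.56 for PIN3 to −1.50 for IAA13, with adjusted p of 0.061 to 0.31, and IAA3 (−0.62), GH3.5 (−1.15) and LAX3 (−0.64) moved by more than 1.5 times. New were IAA5 (1.95), IAA10 (1.59) and ARF5 (−0.88). Without replicate 2 of gl3 egl3, 13 members were called, all lower (11.5% of all genes called).

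At Duke 2 of the 45 genes were called, where 8.87% of all genes were, and 9 were below an unadjusted 0.05, where 22.4% of all genes were. ARF7 (AT5G20730) was at 8.52, 7.91 and 7.81 in gl3 egl3, 8.48, 8.35 and 8.45 in ttg and 8.33, 7.87 and 8.43 in wer myb23, against 9.06, 8.82 and 9.0 in cpc try, so the hairy lines lay below cpc try without overlap (−0.72 ± 0.16, adjusted p = 0.021). At Michigan the difference of ARF7 had the opposite sign, at 0.34, and was not called. IAA10 was at 8.10, 7.85 and 8.22 in gl3 egl3, 7.09, 7.19 and 6.84 in ttg and 6.29, 6.23 and 6.53 in wer myb23, against 6.29, 6.28 and 6.15 in cpc try (0.91 ± 0.11, adjusted p = 0.00092). The IAA10 signal was high in gl3 egl3, intermediate in ttg and in wer myb23 level with cpc try.

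Replicate 2 of wer myb23 at Duke was low for auxin-induced and for cap genes alike. GH3.6 was at 6.60 on that array, against 9.32 and 8.83 on the other wer myb23 arrays, and the cap marker BRN1 was at 7.08, against 10.47 and 9.12. Without it 8 members were called (15.9% of all genes were): IAA10 and IAA5 higher, and ARF7, IAA17, ARF8, GH3.3, TIR1 and GH3.5 lower, with GH3.3 at −1.67. Leaving out another array also moved the count, to 6 without replicate 1 of wer myb23 (11.6% of all genes), to 4 without its replicate 3 (8.57%), replicate 3 of gl3 egl3 (9.46%) or replicate 2 of cpc try (3.79%), and to 1 without replicate 3 of cpc try (3.28%).

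**Figure D5:**
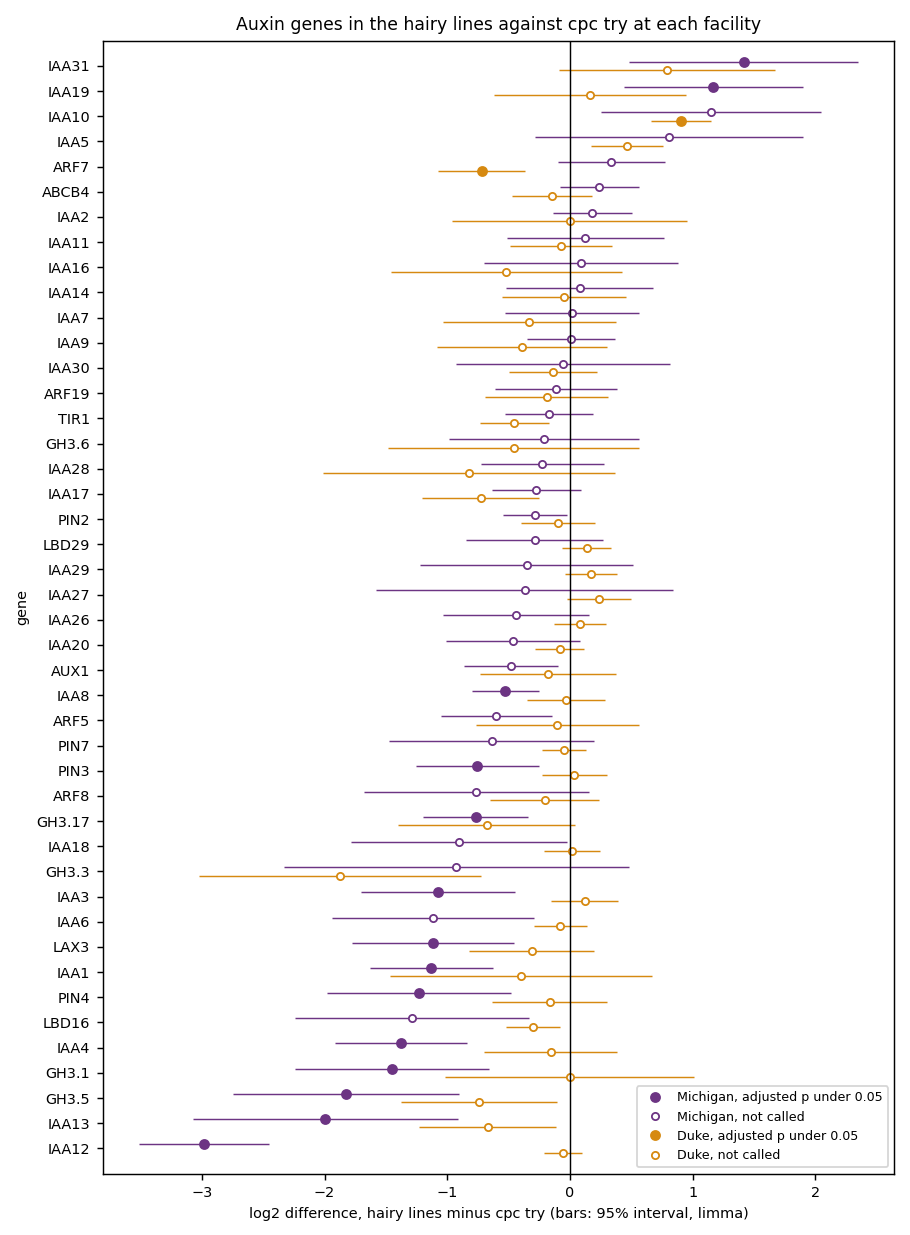
Log2 difference of the hairy lines minus cpc try (horizontal axis, bars for the 95% interval of limma) of 44 auxin genes (vertical axis, in order of the Michigan difference) at Michigan and at Duke, filled points for an adjusted p under 0.05. At Michigan 14 points are filled, down to −2.98 for IAA12, and at Duke the 2 filled points are IAA10 at 0.91 and ARF7 at −0.72.

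The difference between the facilities was tested in a fit of the 24 arrays, chosen after the data were seen. It was called for 3 of 45 members (6.67%, among them IAA12 and IAA4, where 2.82% of all genes were called), and 30 of the 45 genes had the same sign at both. At Duke IAA12 was at 3.94 to 4.16 in the hairy lines and 4.07 to 4.21 in cpc try, close to the 5th percentile of signals there (3.83 to 4.01), and IAA4 was at 3.61 to 4.91 in the hairy lines and 3.94 to 4.48 in cpc try. For ARF7, with 0.34 at Michigan and −0.72 at Duke, the difference between facilities was 1.06 ± 0.31 (adjusted p = 0.070). Without replicate 1 of cpc try and replicate 2 of gl3 egl3 at Michigan and replicate 2 of wer myb23 at Duke, also left out after the data were seen, 4 members were called (4.97% of all genes were), with IAA12 at −2.77, IAA4 at −1.44 and, in addition, IAA5 at 1.60. Without replicate 2 of gl3 egl3 alone IAA4 was no longer called (−1.20 ± 0.34, adjusted p = 0.058).

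Cell type markers differed in the same arrays. At Michigan the 4 hair cell markers rose in the hairy lines by 4.56 to 5.93 and GL2 and TTG2 fell by 3.58 and 2.56. The groups did not overlap, although replicate 2 of gl3 egl3 was nearest to cpc try, at 8.52 for GL2 and 7.16 for TTG2. The summed lateral root cap markers were at 10.70 to 11.98 in the hairy lines and 11.41 to 11.67 in cpc try, with SMB at −0.92 (adjusted p = 0.073), BRN1 at −0.35 and BRN2 at 0.31. The 7 stele markers together were at 10.05 to 10.82 in the hairy lines and 9.66 to 10.30 in cpc try, and none was called at either facility. The part of cap and inner cells in the values of LAX3, PIN3, PIN4 and the GH3 genes was not tested.

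The 16 other Michigan lines were set against wild type, and of 720 pairs of a member and a line 5 were called (0.694%, where 0.838% of pairs over all genes were). By an unadjusted p under 0.05 the share of members was 20% in ttg, 15.6% in wer myb23 and 13.3% in cobl9, all lower, where 7.1%, 5.84% and 6.56% of all genes were. It was 0% in gl2 and 20% in csld3, where 3.08% and 24.7% of all genes were. In cpc try, with 5.05% of all genes called, IAA12 was at 6.15, 6.06 and 6.03, against 3.77, 3.27 and 3.67 in wild type, and rose by 2.51 ± 0.32 (adjusted p = 1.3e-07), with every cpc try array above every wild-type array (2.48 without replicate 1 of cpc try).

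In csld3, a cellulose synthase-like mutant, 2 of the 45 members were called, where 4.11% of all genes were. The share of members called was thus close to that of all genes. Both were PIN genes, and they changed in opposite directions. PIN7 was at 6.76, 5.78 and 5.18 in csld3, against 3.94, 3.97 and 4.32 in wild type, and rose by 1.83 ± 0.51 (adjusted p = 0.034). PIN4 was at 6.80, 5.70 and 6.32 in csld3, against 7.61, 7.65 and 8.21 in wild type, and fell by 1.55 ± 0.46 (adjusted p = 0.043). In mrh3, with 2.76% of all genes called, IAA4 was at 5.36, 5.87 and 5.48, against 6.74, 6.42 and 6.98 in wild type, and fell by 1.14 ± 0.33 (adjusted p = 0.045). For none of these 3 genes did the groups overlap, but the calls depended on the settings: PIN4 lost its call under 4 of 7 alternatives (adjusted p up to 0.12), PIN7 under 2 of 6 (up to 0.12) and IAA4 under 3 of 7 (up to 0.30), with the direction kept. PIN4 also lost it without any single csld3 array or without replicate 2 or 3 of wild type, PIN7 without replicate 1 of csld3 or any single wild-type array, and IAA4 without any single array of mrh3 or wild type. Without replicate 1 of csld3 or replicate 1 of wild type 3 pairs were called, and without replicate 2 or replicate 3 of wild type 2.

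Several members lay on one side of wild type in nearly all lines. However, every line was set against the same 3 wild-type arrays, so these are not separate observations. The 3 wild-type arrays also fall in different array series, while most lines have all their arrays in the same series. Only gl2 is spread over the series as wild type is, so line and array series cannot be fully told apart here. GH3.6 was below wild type in all 16 lines (median −0.89), with 7 lines at an unadjusted p under 0.05. GH3.5 was below it in 15 lines (median −1.08, 8 lines), PIN4 in 15 (median −0.76, 6 lines) and IAA4 in 14 (median −0.71, 10 lines). IAA27, at 4.53, 4.58 and 4.15 in wild type, was above it in all 16 lines (median 0.90, 3 lines) and ARF7 in 14 (median 0.42, 6 lines). By line, the median over the members was lowest in cobl9 and myc1, at −0.35 and −0.34, against 0.02 and −0.03 over all genes.

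Other genes of the pathway were read from a list of 64, of which 55 were measured: receptors, other ARFs, carriers, SAUR genes, and enzymes of IAA synthesis and conjugation. After IAA 1 of the 55 was called, where 2.78% of all genes were, and a fit of only the arrays compared called no gene. The called gene was TAR2, an aminotransferase of the indole-3-pyruvate route to IAA. TAR2 was at 7.16, 6.27 and 7.15 in rhd6 + IAA, against 5.76, 5.46 and 5.35 in rhd6 + MS (1.33 ± 0.38, adjusted p = 0.047). It was at 6.60, 7.15 and 5.76 in rhd6 + ACC and at 6.45, 6.88 and 7.86 in rhd6, so rhd6 + MS was the low group here too (−1.54 ± 0.38 against rhd6, adjusted p = 0.030). After ACC none of the 55 was called, where 0.779% of all genes were. In the hairy lines at Michigan 9 fell and none rose, where 5.26% of all genes were called lower and 6.62% higher, and 4 of the 9 were among the 12 synthesis genes. Without replicate 1 of cpc try 7 fell, and without replicate 2 of gl3 egl3 8 did.

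CYP79B3, which with CYP79B2 converts tryptophan to indole-3-acetaldoxime, was at 4.07, 3.79 and 4.21 in gl3 egl3, 4.23, 3.81 and 4.22 in ttg and 3.88, 4.10 and 3.71 in wer myb23, against 5.54, 5.53 and 5.23 in cpc try (−1.43 ± 0.23, adjusted p = 8.8e-06). The carrier gene LAX2 was at 4.67, 4.13 and 4.83 in gl3 egl3, 5.01, 5.09 and 5.02 in ttg and 4.00, 4.16 and 4.79 in wer myb23, against 5.28, 5.45 and 5.59 in cpc try (−0.81 ± 0.23, adjusted p = 0.011). For both, every hairy array was below every cpc try array at Michigan, and both stayed called without replicate 1 of cpc try (−1.38 and −0.89) or replicate 2 of gl3 egl3 (−1.39 and −0.74).

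At Duke 4 of the 55 fell and 1 rose, where 8.87% of all genes were called. The efflux transporter gene ABCB19 was at 6.55, 7.74 and 7.53 in gl3 egl3, 8.65, 8.72 and 8.67 in ttg and 8.64, 9.35 and 8.43 in wer myb23, against 9.39, 9.71 and 9.46 in cpc try (−1.27 ± 0.25, adjusted p = 0.011). ILR1, an amidohydrolase that frees IAA from its conjugates, was at 8.05, 7.79 and 8.39 in gl3 egl3, 8.28, 8.06 and 8.28 in ttg and 8.46, 7.62 and 8.96 in wer myb23, against 9.16, 9.65 and 10.14 in cpc try (−1.44 ± 0.27, adjusted p = 0.0092). The highest wer myb23 array of either gene came close to cpc try without reaching it. Without replicate 2 of wer myb23 both stayed called (−1.36 and −1.32).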

How the data were processed

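The deposited values are log2 signals that the authors computed with RMA and quantile normalization, with 1 custom probe set per locus on ATH1 arrays. The versions used were not given in the sources used here. After removal of the 64 control probe sets 21440 genes remained, and no column of sample values was unused (0). The 63 Michigan and the 12 Duke arrays were fitted apart with limma 3.58.1 in R 4.3.3, with a mean for each group, contrasts, moderated variances and Benjamini-Hochberg adjustment over all genes, and a gene was called at an adjusted p under 0.05. The hairy lines were averaged with equal weight. The code was tested on simulated data. Arrays give no counts, and their number, 3 a group, limits the precision. Groups and replicates came from the labels, and array series were inferred from the first letter of the array names in them.

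Members and lists were chosen with earlier results of these data known. Of the members, those called without overlap were given on every array, up to 12 a comparison, and after hormone treatment also the GH3 and PIN genes, AUX1 and TIR1. Others were given for a high or low rank. Pathway genes outside the list were named only where called without overlap. Near-identical paralogs may share probe sequence, which was not analysed here. Alternatives were other scalings, thresholds and filters, a replicate block, array series, fits of only the groups compared and leaving out each array. One member is counted in the totals over members and is not otherwise reported here.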

Additional observations from a re-analysis of the deposited data

Results flagged for a closer look

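The difference of the hairy lines from cpc try was itself different at Michigan and at Duke for IAA12 and IAA4, by a limma test of that difference over 24 arrays. For IAA12 the Michigan difference minus the Duke difference was −2.93 (adjusted p = 7.9e-06), with −2.98 at Michigan and −0.06 at Duke. For IAA4 it was −1.22 (adjusted p = 0.0496), with −1.38 at Michigan and −0.16 at Duke, and it was −1.20 without replicate 2 of gl3 egl3 at Michigan (adjusted p = 0.058). Signals of IAA12 and IAA4 were near the 5th percentile of the Duke arrays, and whether this sets the difference was not tested.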

How the results depend on the processing

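Counts of called members rest on 3 arrays a group and moved with the settings. Leaving out 1 array at a time gave 0 to 12 called members for rhd6 + IAA against rhd6 + MS, 0 to 3 for rhd6 + MS against rhd6, 9 to 16 for the hairy lines at Michigan, 1 to 8 at Duke and 2 to 6 pairs for the 16 lines, and 0 for rhd6 + ACC against rhd6 + MS, rhd6 + IAA against rhd6 + ACC and rhd6 against wild type. A fit of only the groups compared gave 0 for IAA and 3 for ACC. Against rhd6 without transfer, an alternative chosen after seeing the data, IAA gave 0. At a 0.5% false discovery rate with a 2-fold change IAA gave 0, and at 5% with a 2-fold change Duke gave 0. At an unadjusted p under 0.01 there were 7 for IAA, 1 for ACC, 1 for IAA against ACC, 5 for rhd6 + MS against rhd6, 6 for Duke and 47 pairs for the 16 lines. Without genes of a mean under 5 there were 9 for Michigan and 2 pairs for the lines. Quantile normalization gave 1 for rhd6 + MS against rhd6, 4 for Duke and 3 pairs for the lines, a common array median gave 4 for Duke, and array series as a factor gave 2 pairs for the lines. The causes of these moves were not tested. A common array median also moved the median of all genes by 0.12 for IAA against MS, 0.10 for IAA against ACC and −0.12 for rhd6 + MS against rhd6.

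With the replicate number as a block there were 4 at Duke, 3 for IAA, 15 at Michigan, 5 pairs for the lines and 0 elsewhere. Deviations of same-numbered arrays correlated at 0.064, −0.40 and −0.26 between IAA and MS, at 0.26, −0.14 and −0.0032 between IAA and ACC and at 0.30, 0.29 and 0.043 between ACC and MS, so no set of numbers had 3 clearly positive correlations and they were not taken to pair the samples.

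Directions turned for a few uncalled genes: PIN2 with IAA was at 0.012 with a common array median, PIN3 with IAA was at −0.18 without replicate 1 of rhd6 + IAA and −0.055 without replicate 1 of rhd6 + MS, PIN4 with ACC was at −0.32 without replicate 2 of rhd6 + ACC and −0.065 without replicate 2 of rhd6 + MS, and GH3.3 with ACC was at −0.026 without replicate 3 of rhd6 + MS. With 1 array left out PIN3 with IAA reached 0.28, PIN4 with ACC 0.27 and GH3.3 with ACC 1.17. Of the other values for single genes, 304 kept their direction and side of the threshold under other settings and 19 lost the call, and with 1 array left out 554 kept both, 61 lost the call and 1 gained it.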

Other observations

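A few genes of IAA synthesis and release outside the list differed from wild type in single lines, by the same limma fit and the same 3 wild-type arrays. CYP79B3 was at 5.54, 5.53 and 5.23 in cpc try, against 4.05, 3.86 and 4.03 in wild type, and rose by 1.45 (adjusted p = 0.00037). YUC5, a flavin monooxygenase of the last step of IAA synthesis, was at 7.60, 6.78 and 8.25 in ttg, against 8.82, 9.82 and 9.81 in wild type, and fell by 1.94 (adjusted p = 0.036). In mrh3 its relative YUC3 was at 7.69, 8.60 and 8.14, against 9.21, 9.26 and 9.78 in wild type, and fell by 1.27 (adjusted p = 0.049). ILR1 was at 10.45, 10.55 and 10.28 in mrh3, against 8.93, 9.58 and 9.02 in wild type, and rose by 1.25 (adjusted p = 0.045). None of these groups overlapped with wild type. These genes were picked from the 55 measured in 16 lines. Over all genes 5.05% were called in cpc try, 0.993% in ttg and 2.76% in mrh3. The adjusted p of YUC5, YUC3 and ILR1 lay near the threshold, and fits without single arrays are not given for them.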
